A study of Canis lupus familiaris with 7 samples.

Results

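Ion channel genes were described across 7 canine primary osteosarcomas, bone tumours whose cells deposit osteoid, of which 4 carried a deletion of DLG2 and 3 were DLG2 wild type. The genes were taken by the start of their symbol, for the potassium (KCN), sodium (SCN), calcium (CACN), ClC (CLCN), CLIC, tweety (TTYH), transient receptor potential (TRPC, TRPM, TRPV), anoctamin (ANO) and GABA-A receptor (GABR) families. This gave 157 of the 13789 gene names on the array, with 218 of its 43603 probes. TTYH1 had been seen lower in the deleted tumours in earlier results of these data and the list was chosen by that measured difference, the other genes by their symbols alone, so its difference between the groups is given as a description, without a test. Each tumour came from another dog, hybridised on 1 array. The deleted tumours came from dogs aged 8, 9, 6 and 7 years with the sex labels MC, FS, MC and FS, and with the breed labels Mixed Breed (German Shepherd/Collie/X), Rottweiler X, Greyhound and Great Pyrenees. The wild-type tumours came from dogs aged 12, 10 and 8 years with the sex labels FS, FS and MC, and with the breed labels Boxer, Mixed Breed (Labrador Retriever/X) and Bull Mastiff. The labels give no treatment. RNA came from tumour tissue as a whole, in which fewer cells of a type and less RNA per cell cannot be told apart.

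Ion channels are membrane proteins that let selected ions pass. Potassium, sodium and calcium channels open and close with voltage, ligands or stretch, and are built from pore-forming and auxiliary subunits. Tweety proteins were first described as chloride channels and are best known from the nervous system, whereas in bone, the chloride and proton exchanger ClC-7 (CLCN7) serves the osteoclast that dissolves mineral. DLG2 itself is a synaptic scaffold, a membrane-associated guanylate kinase whose PDZ domains bind the tails of Shaker-type potassium channels and of some inward rectifiers.

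Probes of TTYH1, TTYH2, KCNA1 and CLIC4 are shown with their canFam2 positions, so that the part of each transcript that was measured can be seen. Among these genes, the size of the difference depended on the probe for TTYH1 and KCNA1. The TTYH1 probe with the highest signal, on which the main value rests, and the second CLIC4 probe are named only. Each is 60 bases long and is written 5′ to 3′ as the array holds it, and the capitals in the first mark its last 3 bases, which spell a stop codon if read as 1 triplet (the reading frame was not analysed here).
TTYH1 probe A_11_P112196, chr1:105936822-105936964, minus strand: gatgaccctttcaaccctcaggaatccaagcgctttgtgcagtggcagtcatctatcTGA
TTYH1 probe A_11_P112201, chr1:105937238-105940091, minus strand: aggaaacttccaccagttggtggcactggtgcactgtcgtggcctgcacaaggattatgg
TTYH2 probe A_11_P081006, chr9:9127184-9127243, minus strand: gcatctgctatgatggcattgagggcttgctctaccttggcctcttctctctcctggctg
KCNA1 probe A_11_P0000030458, chr27:42963754-42963813, minus strand: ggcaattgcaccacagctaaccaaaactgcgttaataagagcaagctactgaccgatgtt
KCNA1 probe A_11_P051731, chr27:42964194-42964253, minus strand: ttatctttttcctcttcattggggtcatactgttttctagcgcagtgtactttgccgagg
CLIC4 probe A_11_P103341, chr2:77800087-77800146, minus strand: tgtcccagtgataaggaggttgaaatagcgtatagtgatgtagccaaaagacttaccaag
The 2 TTYH1 probes shown are spread over 143 and 2854 genome bases, so that each bridges sequence missing from the transcript. The place of the other probes in an exon, an intron or the ends of the transcript was not analysed here.

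Of the 157 ion channel genes, 105 had a probe well above background on at least 3 arrays, which is 66.9% against 84.2% of all gene names, and 72 were above background in all 7 tumours. Of the 52 others, 29 were above background in no tumour and 23 in 1 or 2. The genes in no tumour or in few lay mostly among the voltage-gated potassium pore subunits (15 of 32 not kept), the inward rectifiers (6 of 13) and the GABA-A receptor subunits (6 of 12), and all 8 ClC genes were kept. The osteoblast markers COL1A1, COL1A2, ALPL, BGLAP and RUNX2 were above background in all 7 tumours. Of 8 glial markers 4 were kept and 3 of these were above background in all 7 tumours, while PMP2 was in none. Of 8 neuronal markers 6 were kept, all above background in all 7 tumours, while SYP was in none. All 6 were lower on average in the deleted tumours (median difference -0.33 log2 units) and 1 of them, SNAP25, did not overlap between the groups (difference -0.49, limma adjusted p = 0.50). Between 30280 and 31366 probes were above background per deleted array and between 31446 and 34538 per wild-type array, and no spot was saturated. Detection in wild-type tumours alone is to be read beside this difference over all probes. Deleted tumour 1 held 98 of the 144 values that the software marked as outliers, against 5 to 14 on each other array. DLG2 has 1 probe, whose level overlapped between the groups (mean 10.79 ± 0.47 SD, n = 4, in deleted and 11.56 ± 0.58, n = 3, in wild-type tumours, log2 intensity). Wild-type tumours 1 and 2 stand apart: their arrays correlated at 0.987 over all kept probes, against 0.936 to 0.966 for the other 20 pairs of arrays. The labels give different dogs, and whether the 2 samples are otherwise related was not tested; if they were, the wild-type group would hold fewer independent tumours than 3. With the 2 averaged to 1 sample, 1405 of the 32309 kept probes had an unadjusted p under 0.05, against 2349, and 4 ion channel genes were lower and 2 higher.

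TTYH1 was lower in every deleted tumour than in any wild-type tumour at each of its 3 probes with the normalization used here, though not at every probe under another scaling. The neuronal marker list moved with the groups as given above, and its part in TTYH1 was not tested. At probe A_11_P0000016593 (chr1:105936349-105936408, minus strand, 413 bases past the probe with the capitals in the direction of the transcript) the deleted tumours measured 8.09, 8.05, 8.29 and 8.13 and the wild-type tumours 9.07, 9.38 and 9.06 on the log2 intensity scale. The groups thus left a gap, and the difference in means was -1.03 log2 units (2.04-fold), with SDs of 0.11 (n = 4) and 0.18 (n = 3). At probe A_11_P112196 the deleted tumours measured 6.78, 6.65, 6.51 and 6.72 and the wild-type tumours 7.13, 7.25 and 7.36, a difference of -0.58. This probe was not well above background in every tumour, so the size of its difference is limited by the background. The signal of the third probe, A_11_P112201, was well above background in 0 of 4 deleted and 3 of 3 wild-type tumours (mean log2 intensity 6.51 and 6.71). It passed the filter through the wild-type tumours alone, so its difference is only a bound. With the normalization used here that bound is at least 1.15-fold lower in deleted tumours. It does not hold with normexp and 75th percentile scaling, where the difference was 0.59 log2 units.

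The size of the TTYH1 difference moved with the signal used more than with the tumours left out. Leaving out any 1 tumour kept it between -1.09 and -0.93 log2 units at probe A_11_P0000016593. It was -1.22 among the 4 tumours of one extraction session and -0.98 among the 3 of the other. Within the single slide that held both groups, whose tumours all belong to the first of these sessions, it was -1.21. TTYH1 was chosen for this difference and its groups do not overlap at this probe, so the sign was fixed beforehand. With the processed signal of the scanner software the difference was -1.50 scaled to the 75th percentile and -1.49 after quantile normalization. The 2 dimmer probes gave -0.01 (A_11_P112196) and 0.59 (A_11_P112201) with normexp and 75th percentile scaling, under which the median of all probes shifted by 0.32, and -2.41 and -1.92 with the processed signal under the same scaling.

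**Figure D1:**
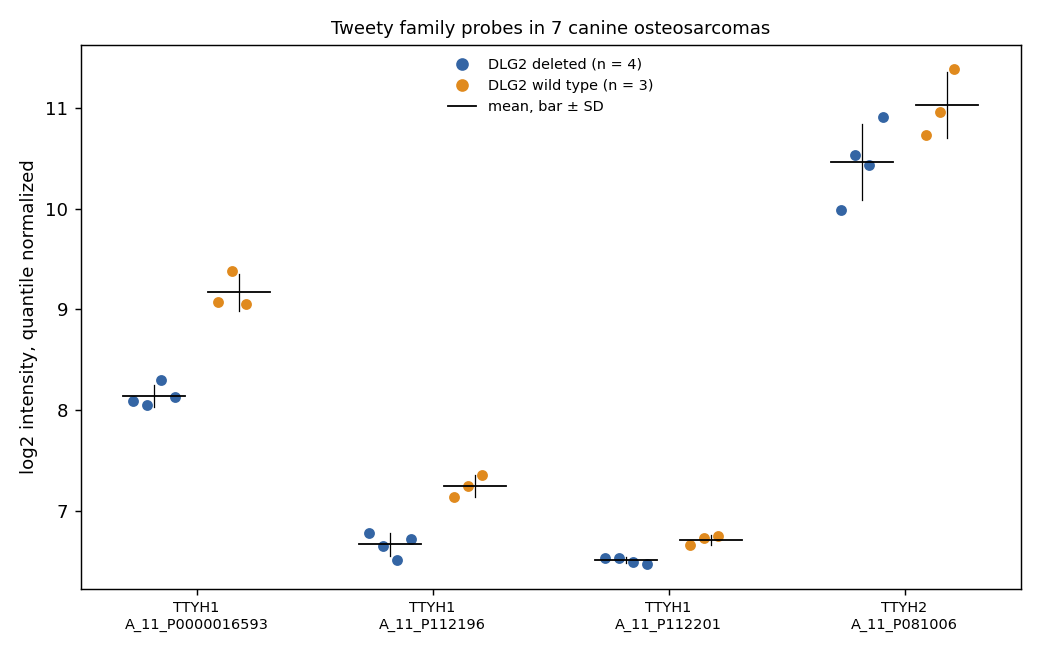
Log2 intensity (quantile normalized) of the 3 TTYH1 probes and the TTYH2 probe in each tumour, with blue points for the 4 DLG2 deleted and orange points for the 3 wild-type tumours, horizontal lines for means and vertical bars for ± SD. The groups do not overlap at any TTYH1 probe, where the differences are -1.03, -0.58 and -0.21, the third turning positive and the second near 0 with normexp and 75th percentile scaling, and they overlap at the TTYH2 probe.

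TTYH2, the other tweety gene with a probe (TTYH3 has none under its symbol), measured 9.99, 10.53, 10.43 and 10.91 in the deleted and 10.74, 10.97 and 11.39 in the wild-type tumours. Deleted tumour 4 lay above wild-type tumour 1, and the difference of -0.56 log2 units (SE 0.25) did not pass the test (limma over all kept probes, adjusted p = 0.70).

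No ion channel gene passed the threshold between the groups (limma, unadjusted p under 0.05 with adjusted p under 0.1), nor did any of the 32309 kept probes (0%), and the methods' t-test called 0 at the same threshold. At an unadjusted p under 0.05 alone, 6 of the 105 genes were lower in deleted tumours (among them TTYH1, which was chosen for it, and KCNA5, KCNK5, CACNA1C and CACNA1G) and 2 were higher (CLIC4 and ANO8), or 5.71% and 1.90%. Over all gene names with a kept probe, 3.95% were lower and 3.71% higher by the same rule (4.18% and 3.1% of all kept probes), so that the shares of the ion channel genes lay near that background. The methods' t-test gave 4 lower and 4 higher. The groups did not overlap for 10 genes, 6 lower in deleted tumours (among them TTYH1, KCNA4, KCNJ16, CACNA1C and TRPV6; 5.71%, against 3.63% of all gene names and 4.25% of all probes) and 4 higher (CLCN5, CLIC4, ANO8 and TRPM2; 3.81%, against 4.27% and 3.9%). Of the other 4 lower genes named, all overlapped with normexp and 75th percentile scaling, and of the 4 higher ones CLIC4 did. The median difference of the 105 genes was -0.03 log2 units, with 59 below and 46 above 0, against 0.01 over all gene names. It was 0.60 with normexp and 75th percentile scaling (0.29 above the shift of all probes) and -0.32 with the processed signal under that scaling (-0.26 from the shift), so that the list had no settled direction.

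**Figure D2:**
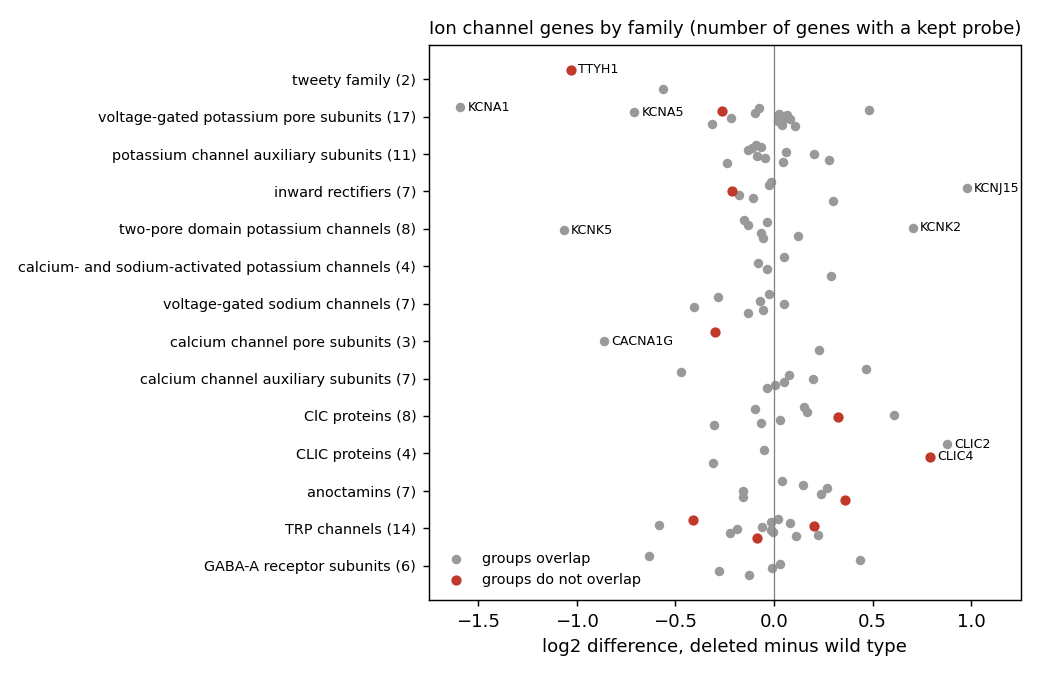
Difference in log2 intensity, deleted minus wild type, of each of the 105 ion channel genes with a kept probe, by family, with red points for genes whose groups do not overlap and names for differences of at least 0.7 in size. The median over the 105 genes is -0.03, which changes sign with the scaling, both tweety genes lie below 0 (-1.03 and -0.56), and CLIC2 and CLIC4 are at 0.88 and 0.79.

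Among the voltage-gated potassium pore subunits, 17 of 32 genes had a kept probe, 1 was lower at an unadjusted p under 0.05 and none was higher. KCNA5, a Shaker-type channel of heart and smooth muscle, measured 9.95, 11.02, 10.33 and 10.26 in the deleted and 10.67, 11.51 and 11.11 in the wild-type tumours, a difference of -0.71 (SE 0.30, adjusted p = 0.68). Deleted tumour 2 overlapped the wild-type tumours. KCNA4, the Shaker-type channel of fast inactivating currents, measured 6.69, 7.11, 6.95 and 6.95 in the deleted and 7.12, 7.29 and 7.15 in the wild-type tumours. Its groups were apart by the gap between deleted tumour 2 and wild-type tumour 1 alone, with a difference of -0.26 (adjusted p = 0.71), and they overlapped under the 3 other combinations of signal and scaling.

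KCNA1, the Shaker-type channel whose human mutations cause episodic ataxia, had the widest measured range of the ion channel genes, 3.13 log2 units, which is a lower bound on its spread because wild-type tumour 3 and deleted tumour 4 were not above background at this probe. Probe A_11_P0000030458 measured 6.81, 7.15, 6.82 and 6.49 in the deleted and 9.15, 9.61 and 6.47 in the wild-type tumours. Wild-type tumours 1 and 2 thus lay far above the rest, and wild-type tumour 3 was not above background. At the second probe, A_11_P051731, wild-type tumours 1 and 2 were again highest, with 7.93, 8.31 and 6.51 in the wild-type tumours and 6.48 to 6.79 in the deleted ones. The difference of -1.59 between the groups (SE 0.72, adjusted p = 0.71) therefore turned on wild-type tumour 3: without it, the difference was -2.56 and KCNA1 and CACNA1G were the 2 ion channel genes that passed the threshold (2 of 105), as did 46 of all 32309 kept probes (0.142%). In that fit the wild-type group holds only the 2 most alike arrays.

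In the 2 tumours with the most alike arrays, wild-type 1 and 2, 15 of the 105 genes (14.3%) were higher than in all 5 others. The share of all gene names was 7.85%, and this is a description without a test. The 15 include KCNK10, KCNJ16, KCNAB3 and CACNG7, which passed the filter through the wild-type tumours alone. They also include TTYH1, chosen because it was lower in deleted tumours. The leads over the next tumour were 2.00 log2 units for KCNA1 and 1.20 for CACNA1G, 0.33 for SCN3A and at most 0.25 for the 12 others, TTYH1 among them with 0.02. SCN8A, a neuronal sodium channel that passed the background in those 2 tumours alone, measured 6.89 and 7.07 there and 6.44 to 6.59 elsewhere. Among markers, the neuronal list was highest in the same tumours (0.22 and 0.17 log2 units above its mean), and its part in these values was not tested. Over the ion channel genes, the median size of the difference between these arrays was 0.12 log2 units, against 0.15 to 0.24 for the other pairs.

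Of the auxiliary potassium channel subunits, 11 of 14 were kept and none was lower or higher at an unadjusted p under 0.05. KCNRG, a suppressor of voltage-gated channel assembly, differed by -0.24 and KCNE1L (also known as KCNE5) by -0.13 (adjusted p = 0.80 and 0.85). Both turned positive, to 0.42 and 0.43, with normexp and 75th percentile scaling. KCNMB1, the smooth muscle subunit of the large-conductance calcium-activated channel, had the widest range of the family and measured 7.01, 7.86, 8.65 and 7.32 in the deleted and 7.37, 7.88 and 7.04 in the wild-type tumours. Deleted tumour 3 stood highest.

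Of the 13 inward rectifiers, 7 were kept and none passed at an unadjusted p under 0.05. KCNJ8, the pore of the vascular ATP-sensitive channel, measured 7.61, 7.76, 8.31 and 7.63 in the deleted and 7.63, 7.49 and 7.46 in the wild-type tumours, with deleted tumour 3 again highest (difference 0.30, adjusted p = 0.80). The endothelial list (6 of 8 markers kept, TEK and ESAM under the limit) was also highest there, 1.28 log2 units above its mean over the tumours against -0.23 to 0.11 in the other deleted and -0.64 to -0.03 in the wild-type tumours. The leukocyte and skeletal muscle lists were highest in deleted tumour 3 as well (0.76 and 0.35). The part of these lists in KCNJ8 and KCNMB1 was not tested. KCNJ15, a rectifier of epithelia, differed by 0.98 at its brightest probe and by 0.16 at its other kept probe. At the brightest probe it measured 8.01, 9.36, 6.92 and 6.76 in the deleted and 6.76, 6.66 and 6.93 in the wild-type tumours. Deleted tumours 2 and 1 were above all others, and the cartilage list (8 of 9 markers kept) was highest in deleted tumour 2 (1.64) and below its mean in deleted tumour 1 (-0.55); its part was not tested. KCNJ16, a rectifier of kidney and brain, was above background in 0 of 4 deleted and 3 of 3 wild-type tumours. It measured 6.45 to 6.48 in the deleted and 6.95, 6.58 and 6.51 in the wild-type tumours. That bounds its difference at no less than 1.15-fold with the normalization used here only. KCNJ16 passed the filter through the wild-type tumours alone. With normexp and 75th percentile scaling the sign of its difference turned (0.63). The rectifiers KCNJ4 and KCNJ12, of the strongly rectifying subfamily whose tails bind such scaffolds, differed by -0.11 and -0.03 (adjusted p = 0.86 and 0.98).

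The two-pore domain channels carry the resting potassium current, and 8 of 12 were kept. KCNK5, an acid-sensitive channel also known as TASK-2, measured 10.09, 11.15, 10.42 and 10.69 in the deleted and 10.88, 11.94 and 12.15 in the wild-type tumours. Deleted tumour 2 lay above wild-type tumour 1, and the difference was -1.07 (SE 0.37, adjusted p = 0.63). KCNK2, the stretch-sensitive channel TREK-1, was high in 1 tumour, with 9.85 in deleted tumour 1 and 7.58, 7.88 and 6.92 in the other deleted and 7.50, 7.02 and 7.54 in the wild-type tumours. Its range was 2.93 log2 units, and the groups overlapped (difference 0.70, adjusted p = 0.90). KCNK10, a relative of KCNK2, was above background in 0 of 4 deleted and 3 of 3 wild-type tumours and so passed the filter through the wild-type tumours alone. Deleted tumour 1 (6.64) lay above wild-type tumour 3 (6.56), and the difference was -0.15, or 0.63 with normexp and 75th percentile scaling. Of the calcium- and sodium-activated channels, 4 of 5 were kept. KCNN4, the channel of red cells and lymphocytes, measured 7.39, 8.26, 7.66 and 7.27 in the deleted and 7.13, 7.56 and 7.38 in the wild-type tumours (difference 0.29, adjusted p = 0.89), highest in deleted tumour 2. KCNN1 differed by -0.08 (adjusted p = 0.95), with the sign turning under normexp and 75th percentile scaling (0.70).

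**Figure D3:**
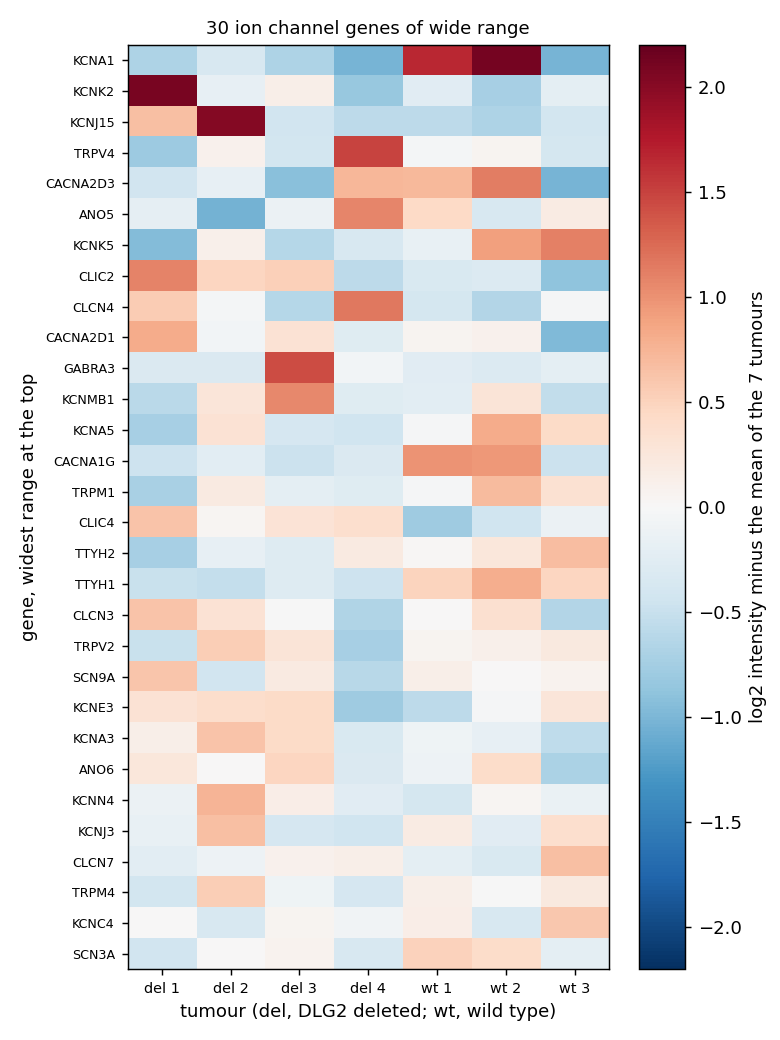
Log2 intensity minus the mean of the 7 tumours for 30 ion channel genes of wide range, ordered from the widest, in each tumour (del, DLG2 deleted; wt, wild type; red above, blue below the mean). Several genes are high in 1 or 2 tumours: KCNA1 and CACNA1G in wt 1 and wt 2, KCNK2 in del 1, KCNJ15 in del 2, GABRA3 in del 3 and TRPV4 in del 4.

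The median range of the ion channel genes over the 7 tumours was 0.60 log2 units against 0.80 over all gene names, and 44 of the 105 genes had a range under 0.5 (41.9%, against 26.5% of all gene names). Dim probes have small ranges on this scale, and their part in this was not tested. A range of 2 log2 units or more was found in 8 genes (7.62%, against 7.36% of all gene names), among them KCNA1, KCNK2, KCNJ15, TRPV4, CACNA2D3, ANO5 and KCNK5.

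Voltage-gated sodium channels start the action potential, and 7 of 10 were kept, with none lower or higher at an unadjusted p under 0.05. SCN3A, an embryonic neuronal pore, measured 7.03, 7.47, 7.53 and 7.11 in the deleted and 7.96, 7.86 and 7.25 in the wild-type tumours (difference -0.40, adjusted p = 0.77), with wild-type tumour 3 inside the range of the deleted ones, and the sign turned with normexp and 75th percentile scaling (0.06). SCN9A, the channel of pain neurons, measured 7.78, 6.74, 7.35 and 6.55 in the deleted and 7.30, 7.18 and 7.24 in the wild-type tumours. The deleted tumours enclosed the wild-type ones on both sides.

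Of the calcium channel pore subunits, 3 of 5 were kept and 2 were lower at an unadjusted p under 0.05. CACNA1C, the L-type pore of heart and smooth muscle, measured 7.63, 7.49, 7.51 and 7.29 in the deleted and 7.76, 7.84 and 7.73 in the wild-type tumours. The groups did not overlap at this probe (difference -0.30, SE 0.11, adjusted p = 0.63), but its 3 other kept probes, which were dimmer, gave -0.13, -0.04 and 0.07 with overlapping groups. CACNA1G, a T-type pore that opens near the resting potential, measured 6.69, 6.92, 6.69 and 6.84 in the deleted and 8.15, 8.12 and 6.68 in the wild-type tumours. Wild-type tumour 3 was the lowest of all 7, and the difference was -0.86 (SE 0.36, adjusted p = 0.68), or -1.35 without that tumour. Of the auxiliary subunits, 7 of 12 were kept. CACNA2D3 was 7.16, 7.40, 6.67 and 8.32 in the deleted and 8.29, 8.72 and 6.56 in the wild-type tumours at its brightest probe. Wild-type tumours 1 and 2 and deleted tumour 4 were thus high there (difference -0.47, limma adjusted p = 0.92). Over its 3 kept probes the differences ran from -0.47 to 0.02. CACNA2D1, the target of gabapentin, differed by 0.47 and CACNG1, the skeletal muscle subunit, by 0.20 (adjusted p = 0.86 and 0.76), with overlapping groups.

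**Figure D4:**
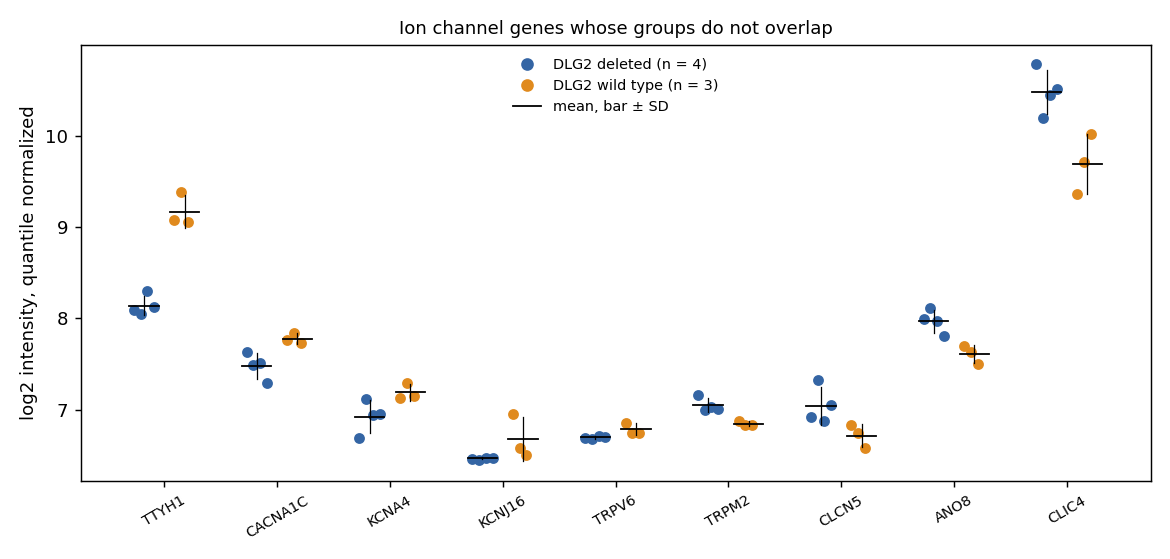
Log2 intensity (quantile normalized) of 9 of the 10 ion channel genes whose groups do not overlap, in each tumour, with blue points for the 4 DLG2 deleted and orange points for the 3 wild-type tumours, horizontal lines for means and vertical bars for ± SD. TTYH1 and CLIC4 have the widest differences, -1.03 and 0.79, and at KCNJ16, TRPV6, CACNA1C, KCNA4 and CLIC4 the groups overlap once normexp is combined with 75th percentile scaling, which also turns the sign of KCNJ16.

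CLIC proteins are soluble or membrane-bound relatives of glutathione transferases that can form chloride channels, and 4 of 5 were kept. CLIC4 was higher in every deleted tumour, with 10.78, 10.19, 10.45 and 10.51 against 9.36, 9.71 and 10.02 in the wild-type tumours (difference 0.79, SE 0.20, unadjusted p = 0.00547, adjusted p = 0.50). Its second probe gave 10.13, 10.03, 10.31 and 10.23 against 9.10, 9.46 and 9.70, again without overlap, a difference of 0.76. CLIC2, an inhibitor of ryanodine receptors, measured 10.05, 9.43, 9.47 and 8.37 in the deleted and 8.63, 8.66 and 8.07 in the wild-type tumours at its brightest probe. Deleted tumour 4 overlapped there (difference 0.88, adjusted p = 0.70), whereas at its 2 other probes the groups were apart, with differences of 1.01 and 0.79. The agreement of several probes did not extend to every gene: of the 27 ion channel genes with at least 2 kept probes, 19 had differences of 1 sign and 8 of both signs.

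All 8 ClC genes were kept and none was lower or higher at an unadjusted p under 0.05. CLCN5, an endosomal exchanger mutated in Dent disease, measured 6.92, 7.33, 6.87 and 7.05 in the deleted and 6.83, 6.74 and 6.58 in the wild-type tumours (difference 0.33, adjusted p = 0.69). The groups were narrowly apart and overlapped with the processed signal scaled to the 75th percentile. CLCN4, its endosomal relative, had the widest range and was highest in deleted tumours 4 (10.67) and 1 (10.07), with 9.47 and 8.88 in the other deleted and 9.13, 8.87 and 9.49 in the wild-type tumours. CLCN7, the osteoclast exchanger, measured 7.41, 7.53, 7.72 and 7.77 in the deleted and 7.42, 7.30 and 8.30 in the wild-type tumours. It was highest in wild-type tumour 3, where the osteoclast list (all 7 markers on the array kept) was 1.79 log2 units above its mean, against -1.30 to 0.46 in the other tumours; its part in CLCN7 was not tested.

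Anoctamins are calcium-activated chloride channels and lipid scramblases, and 7 of 8 were kept. ANO8, which tethers the endoplasmic reticulum to the plasma membrane, measured 7.99, 8.11, 7.97 and 7.81 in the deleted and 7.70, 7.63 and 7.51 in the wild-type tumours, without overlap (difference 0.36, SE 0.11, adjusted p = 0.56), though the groups overlapped with the processed signal scaled to the 75th percentile. ANO3, expressed in neurons, differed by 0.27 (adjusted p = 0.85) with overlapping groups. ANO5, whose human mutations cause a bone dysplasia of jaw and limbs, ranged over 2.12 log2 units: 7.76, 6.92, 7.83 and 9.03 in the deleted and 8.39, 7.60 and 8.14 in the wild-type tumours. ANO5 was highest in deleted tumour 4 and lowest in deleted tumour 2. There the osteoblast list (all 7 markers on the array kept) stood at 0.49 and -1.23 log2 units from its mean. The list was highest in wild-type tumour 3 (0.66), where ANO5 measured 8.14. The part of the list in ANO5 was not tested.

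Of the 19 TRP genes, 14 were kept. TRPM2, a channel gated by ADP-ribose under oxidative stress, measured 7.16, 7.00, 7.03 and 7.01 in the deleted and 6.87, 6.84 and 6.83 in the wild-type tumours, a small difference of 0.20 (adjusted p = 0.69) that overlapped with the processed signal scaled to the 75th percentile. TRPV6, an epithelial calcium channel, was separate by a difference of only -0.09 (adjusted p = 0.90). TRPV4, the osmotic and mechanical sensor of cartilage and bone, measured 6.92, 7.82, 7.31 and 9.21 in the deleted and 7.68, 7.77 and 7.33 in the wild-type tumours. Deleted tumour 4 stood alone at this probe, and at the second probe it was again the highest, at 7.94 against 7.30 to 7.58.

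GABA-A receptor subunits form the inhibitory chloride channels of the brain, and 6 of 12 were kept, 3 of them above background in all 7 tumours. GABRA3 measured 8.29 in deleted tumour 3 and 6.53 to 6.80 in the 6 others. GABRR2 differed by -0.13 (adjusted p = 0.84) with overlapping groups, and turned to 0.58 with normexp and 75th percentile scaling.

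**Figure D5:**
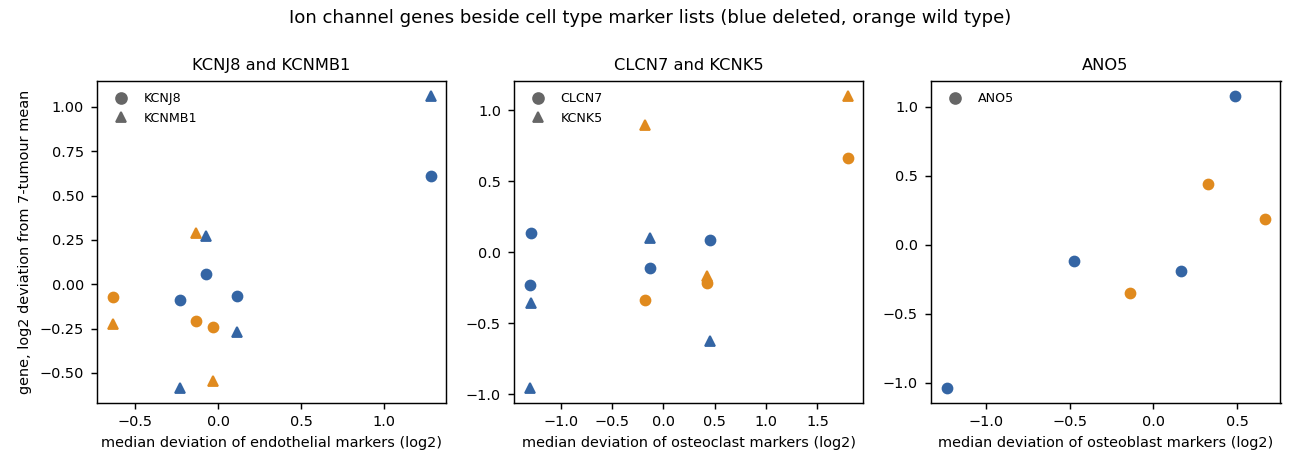
Log2 deviation of 5 ion channel genes from their mean over the 7 tumours, against the median deviation of the endothelial, osteoclast and osteoblast marker lists (log2), with 1 point per tumour and gene, blue for DLG2 deleted and orange for wild type. KCNJ8 and KCNMB1 are highest in deleted tumour 3, where the endothelial list is at 1.28. The leukocyte and skeletal muscle lists, not shown, are also highest in that tumour (0.76 and 0.35). CLCN7 and KCNK5 are highest in wild-type tumour 3, where the osteoclast list is at 1.79. KCNK5 is nearly as high in wild-type tumour 2 (log2 intensity 11.94 against 12.15), where the osteoclast list is at -0.18. ANO5 is lowest in deleted tumour 2, where the osteoblast list is lowest (-1.23). The pairs were chosen after the values were seen and were not tested.

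Other ion channels outside these symbol families, from a list of mechanical, ligand-gated, mitochondrial and intracellular channels, numbered 90 on the array, of which 55 were kept. None passed the threshold (limma; 0 lower and 1 higher at an unadjusted p under 0.05), and their median difference was -0.05 log2 units. The 1 higher gene was FAM38A, the stretch-activated channel now named PIEZO1, with 9.62, 9.61, 9.50 and 9.35 in the deleted and 9.03, 9.04 and 9.22 in the wild-type tumours (difference 0.42, SE 0.11, adjusted p = 0.50). The groups did not overlap. VDAC1, the anion channel of the outer mitochondrial membrane, measured 11.56, 11.65, 12.41 and 11.89 in the deleted and 12.12, 12.42 and 13.08 in the wild-type tumours (difference -0.66, adjusted p = 0.70), with deleted tumour 3 among the wild-type values.

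Within the 2 extraction sessions and on the 1 slide shared by deleted and wild-type tumours (4, 3 and 3 tumours, with 1 tumour in an arm of each), only values without a test can be given, and for genes whose groups do not overlap the sign is fixed beforehand. KCNK5 was -1.19 and -1.42 in the sessions and -1.15 on the slide, and KCNA5 was -0.98, -0.94 and -0.84. CACNA1G was -1.30, -0.72 and -1.31, and CLIC4 was 0.68, 1.09 and 0.61. The tumours of the slide all belong to the session given first, so their values are not separate from it.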

How the data were processed

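RNA of 7 canine osteosarcomas was hybridised to a 1-colour Agilent Canine V2 array. The deposited files hold the linear spot and background intensity written by Agilent Feature Extraction 10.7.3.1 (canFam2 probe positions), and a processed intensity. The methods name RMA and a batch correction with no batch stated.

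The mean intensity was background-corrected (normexp, offset 50), quantile-normalized and put on the log2 scale in limma 3.58.1 (R 4.3.3). Control spots were dropped, as were 144 values that the software marked as outliers. Probes well above background on at least 3 arrays were kept. A gene took its brightest kept probe over the 7 arrays. The offset keeps differences of dim probes small.

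Groups (deleted or wild type) came from the labels. They were compared with limma's moderated test (two-sided, no covariates) over the 32309 kept probes, and a gene was called at an unadjusted p under 0.05 with a Benjamini-Hochberg p under 0.1. The fit was tested on simulated data. Alternatives changed the signal, scaling, filter, fit, covariates, probe choice and tumours. Named genes were TTYH1 and TTYH2, the 2 smallest p and the widest range of each of the 14 families, and the 2 smallest p of the other channels; genes named beside these (such as KCNA4 and TRPV6) were named after their values were seen. Some named genes are not reported here, though counts and medians include them. The members and lists were chosen with earlier results of these data known. Slides numbered 5, with 1 holding both groups; sessions are those of image extraction, set by a gap in its times, with 1 scan day. The number of arrays limits the precision.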

Additional observations from a re-analysis of the deposited data

Results flagged for a closer look

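Within the 4 deleted tumours, 43 genes and lists were checked for a tumour far from its nearest neighbour. The gap was taken as a share of the range of the group, and 1 passed the limit set for it, where chance gives about 2.15. Other gaps took up most of the range but stayed under that limit. Among these were TRPM2 in deleted tumour 1 (0.796), and KCNJ8 (0.79) and the endothelial list (0.775) in deleted tumour 3. For the adipocyte list, deleted tumour 4 lay 0.913 of the range from the next. It stood at 3.12 log2 units from the mean of the list, against -0.61 to -0.28 in the other deleted tumours. ADIPOQ measured 13.37 there and 6.92 to 7.85 in the other deleted tumours. PLIN1, CIDEC and LPL were also highest there, whereas LEP was lowest there, at 7.96 against 8.00 to 8.26 in all other tumours. TRPV4, ANO5 and CLCN4 were also highest in deleted tumour 4, and the part of its fat tissue markers in these values was not tested.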

How the results depend on the processing

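The 25 named genes checked here were chosen for a small p in the same data, and none passed the threshold in the main fit. Staying under it was therefore largely fixed beforehand, and the fits without single tumours reuse the same arrays. Of 520 values under the alternatives, 509 kept their direction and side of the threshold, 2 newly passed it and 9 turned sign. With normexp and 75th percentile scaling these were KCNRG (0.42), KCNE1L (0.43), KCNJ16 (0.63), KCNK10 (0.63), KCNN1 (0.70), SCN3A (0.0613) and GABRR2 (0.58), while all probes shifted by 0.32 on the log2 scale; with slide as a block KCNE1L (0.0037); and with age KCNN1 (0.14). Of the 7 that turned with normexp and 75th percentile scaling, 6 were still turned when measured from that shift, and SCN3A was not (-0.25). Measured so, CACNG1 (-0.08) and FAM38A (-0.04) turned, though they count among the values that kept their direction. Beyond the scaling itself, the cause was not tested. The count of lower genes, 6, was 2 with normexp and 75th percentile scaling, 10 with extraction session as a term and 3 to 10 when single tumours were left out (3 without deleted tumour 1 or 3 or wild-type tumour 2, 10 without deleted tumour 2). The count of higher genes, 2, was 1 and 5 with the processed signal scaled or quantile-normalized, 4 without the filter, 5 with the trend and robust options, 4 with the methods' t-test, with array weights and with session, 5 with the median over probes and 2 to 4 without single tumours (4 without deleted tumour 3 or 4). The count of called genes, 0, was 0 to 2 without single tumours, 2 without wild-type tumour 3, where 46 of all 32309 probes (0.142%) were called. The median difference was 0.60 and, with the processed signal, -0.32 and -0.14, and -0.04 to 0.01 without single tumours. The TTYH1 difference was -1.50 and -1.49 with the processed signal, -1.21 with slide as a block and -0.58 as the median over probes. It was -1.09 to -0.93 without single tumours. The value with slide as a block rests on the single slide that held both groups. No paired analysis was possible because the replicate numbers only name tumours of different dogs. Probes near background have differences that depend on the signal used.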

Other observations

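Of the genes under the filter, ANO4, KCNAB1 and KCNIP4 were seen in deleted tumours only, in 2 of 4, 1 of 4 and 1 of 4. More genes went the other way. Among them, KCNC2, KCNT1, SCN8A, CACNB1 and GABRG1 were above background in 0 of 4 deleted and 2 of 3 wild-type tumours. Every wild-type array had more probes above background over the whole array (31446 to 34538) than any deleted array (30280 to 31366). The share of all genes seen in only 1 group was not counted. ANO4 measured 7.03 and KCNAB1 7.01 in deleted tumour 1, against at most 6.53 and 6.52 in the 6 others, on the log2 intensity scale. PANX3, a hemichannel of osteoblasts and cartilage outside the symbol families, had a range of 3.32 log2 units and was highest in wild-type tumour 1. That is wider than the measured range of any ion channel gene described above, though the 3.13 of KCNA1 is a lower bound. When the difference between the groups was allowed to depend on the sex label, 0 of 32303 probes had an interaction with an adjusted p under 0.1 (limma), and 10 of the 105 ion channel genes had an unadjusted p under 0.05 (9.52%, against 7.94% of all probes). Its wild-type MC arm is 1 tumour, set against the 2 most alike arrays.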
